A study of Mus musculus with 23 samples.

Results

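Messenger RNA of the mouse striatal cell line Q111, exposed to cystamine at 250 µM for 12 h, was compared with that of the line Q7 under the same exposure. The comparison took the 3 Q111 and 3 Q7 arrays whose titles name cystamine, 6 of the 23 arrays in the series, and every probe that carried a gene symbol. Q111 is labelled Mut and Q7 WT. The other arrays used here were Q111 and Q7 cells labelled Control, which carry no dose or time and are called untreated (3 arrays per line), and both lines under ZDON or Boc-DON, each at 50 µM for 12 h (3 Q111 and 3 Q7 arrays, but 2 for Q7 under Boc-DON). The question was which differences between the lines persist, appear or vanish when both are exposed to cystamine, in a series set up to ask what inhibition of transglutaminase 2 does to transcription in models of Huntington disease.

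Q111 and Q7 cells are immortalised striatal precursors from mouse embryos. Q111 carries a huntingtin gene with an expanded CAG repeat, the lesion of Huntington disease, and Q7 carries the short repeat. Each genotype is a single line, so an effect of the repeat and any other difference between the lines cannot be told apart. Cystamine is a disulfide of cysteamine that inhibits transglutaminases, enzymes that cross-link proteins through glutamine residues, and that also reacts with cellular thiols, whose redox state controls the transcription factor NRF2. ZDON and Boc-DON are peptide-like inhibitors of transglutaminases. Since the untreated arrays carry no time or vehicle in the labels, an effect of either cannot be told apart from that of cystamine.

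Replicates 1, 2 and 3 of each group lay on BeadChips 1, 2 and 3, the glass slides that hold several arrays, and values below are listed in that order. Levels are normalized log2 intensities. A line difference is Q111 minus Q7 in log2 units, so that 1 is a factor of 2, given with its standard error (SE), and every adjusted p is that of limma over 9849 genes with the BeadChip as a block. Median raw signals of the 6 cystamine arrays lay between 107.4 and 134.8. No label states that replicates came from separate cultures, and the p-values cover no more than the spread among these arrays, which may be technical. Bag3, a co-chaperone of Hsp70 in selective autophagy, marked the lines on every array, with levels of 9.33 to 10.46 on the 12 Q111 arrays and 6.04 to 6.64 on the 11 Q7 arrays. Of 12 markers of striatal projection neurons on the array, 4 (Rgs9, Bcl11b, Gad1 and Gad2) lay below the array median on all 6 cystamine arrays and 3 above it on all 6. Of 12 fibroblast markers, 5 lay above the median on all 6 arrays and 3 below it on all 6. Of 10 neural progenitor markers, 5 lay above it on all 6 and 4 below it on all 6.

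Under cystamine, Q111 differed from Q7 in 629 genes (6.39% of those tested), of which 422 (4.28%) were higher and 207 (2.1%) lower in Q111. In untreated cells the lines differed in 318 genes (3.23%), of which 207 (2.1%) were higher and the rest (1.13%) lower in Q111. These comparisons contrast different arrays, but both took the residual spread of each gene from the same fit to all arrays of the series. The untreated count lay between 292 and 381 when 1 cystamine array was left out. The cystamine count lay between 600 and 708 when 1 untreated array was left out. The calls, and their overlap, are therefore not independent. The comparisons shared 236 genes, which were 37.5% of the genes called under cystamine and 74.2% of those called untreated. All 236 ran the same way in both conditions, 171 higher and 65 lower in Q111. Over all 9849 genes the line difference under cystamine and that in untreated cells had a Pearson r of 0.651 and a Spearman rho of 0.423, a description over genes that share arrays and are not independent replicates. The test of the difference between them, the line difference under cystamine minus that in untreated cells, passed for 0 genes (0%), with a smallest adjusted p of 0.777. At an unadjusted p under 0.05 it passed for 606 genes, 6.15% of those tested, and without the block it passed for 0, with 396 at that unadjusted level. On all arrays, then, no gene was shown to gain or lose a line difference under cystamine. The test passed for 12 genes without BeadChip 3, for 4 without Q111 cystamine replicate 3 and for 1 without Q111 cystamine replicate 2.

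The counts moved with the BeadChip term and with single arrays. Without the block, 281 genes passed under cystamine, 153 untreated and 114 in both, and with the 6 cystamine arrays fitted alone 104 passed. Leaving out Q111 cystamine replicate 3 raised the count to 1018, while 293, 353, 332 and 357 passed without Q111 replicate 1, Q111 replicate 2, Q7 replicate 1 and Q7 replicate 2. The untreated count was 195 without untreated Q111 replicate 2 and 161 without untreated Q7 replicate 1. The shared count lay between 138, without untreated Q7 replicate 1, and 283, without Q111 cystamine replicate 3, and in these fits at most 1 shared gene ran the opposite way. With arrays scaled to their medians in place of quantile normalization, 487 genes passed, of which 427 were higher and 60 lower, a share of 87.7% higher against 67.1% with quantile normalization.

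**Figure D1:**
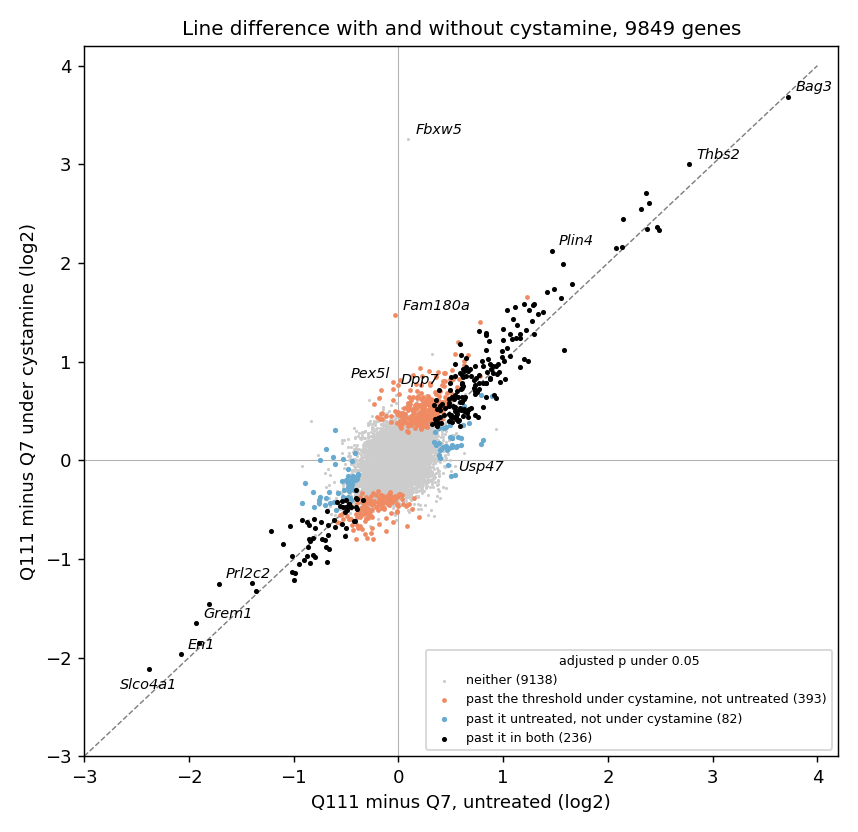
Line difference (Q111 minus Q7, log2) under cystamine on the vertical axis against that in untreated cells on the horizontal axis, 1 point per gene, with the dashed line marking equal values. The 236 genes past the threshold in both conditions (black) lie along the dashed line, and the 393 called under cystamine alone (orange) and 82 called untreated alone (blue) lie closer to the origin. The grey point at the top is Fbxw5, whose arrays split between a high and a low level within groups.

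Among genes whose 3 Q111 and 3 Q7 arrays did not overlap, which is how the leading genes were chosen, Bag3 had the largest positive line difference under cystamine. Bag3 stood at 10.46, 10.26 and 9.47 in Q111 and at 6.44, 6.64 and 6.05 in Q7, a line difference of 3.69 (SE 0.20, adjusted p = 5.13e-10). Thbs2, which encodes the secreted matrix glycoprotein thrombospondin 2, stood at 10.40, 10.65 and 9.19 in Q111 and at 7.03, 6.72 and 7.48 in Q7 (line difference 3.00, SE 0.29, adjusted p = 1.86e-06). In both genes the lowest Q111 array was that of BeadChip 3. Gask1b, a Golgi-associated kinase gene, stood at 10.97, 10.95 and 9.25 in Q111 and at 7.82, 7.61 and 7.60 in Q7. Emb, the surface glycoprotein embigin, stood at 9.29, 9.22 and 7.81 in Q111 and at 6.34, 5.97 and 6.20 in Q7. Their line differences were 2.71 and 2.60, with Q111 again lowest on BeadChip 3. The matrix gene Tgfbi, named for its induction by TGF-beta, followed at 2.55 (SE 0.20), although a second probe of the gene gave 1.15. The secreted sushi-repeat gene Srpx2 differed by 2.45, with 0.78 on its second probe. Lox, whose enzyme cross-links the collagen and elastin of the matrix, stood at 12.54, 12.69 and 11.12 in Q111 and at 9.69, 9.65 and 10.52 in Q7, so that the lines lay closest on BeadChip 3 (line difference 2.16, SE 0.37, adjusted p = 0.00084). The transcription factor gene Sim2, the RNA-binding protein gene Bicc1, the adipogenesis gene Medag, the scavenger-receptor gene Scarf2 and Plin4, a coat protein of lipid droplets, lay between 2.12 and 2.37.

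Of these 12 genes, 6 lay below the array median on all 3 Q7 arrays, so their Q7 level is dim, and no call of presence was used. All 12 of these genes were also higher in untreated Q111 cells past the threshold, and in the mean of the ZDON and Boc-DON arms. Their line difference under cystamine minus that in untreated cells lay between -0.15 for Medag and 0.66 for Plin4. Plin4 stood at 12.09, 12.41 and 10.23 in Q111 and at 9.67, 9.68 and 9.01 in Q7 under cystamine, against 11.26, 11.46 and 10.90 in Q111 and 9.99, 9.93 and 9.33 in Q7 untreated. Its difference of differences had a 95% interval of -0.03 to 1.36 (unadjusted p = 0.0606), so a larger gap under cystamine was not shown on all arrays. Without BeadChip 3 it was 1.16 and passed (adjusted p = 0.0195).

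The genes lower in Q111 were chosen in the same way. Slco4a1, an organic anion transporter gene, stood at 8.53, 8.36 and 7.48 in Q111 and at 10.90, 10.73 and 9.10 in Q7 (line difference -2.12, SE 0.22, adjusted p = 6.25e-06), but its second probe gave 0.07, so the probes disagree. Grem1, a secreted antagonist of bone morphogenetic proteins (BMPs), stood at 8.49, 8.53 and 7.54 in Q111 and at 10.06, 10.14 and 9.31 in Q7 (-1.65, SE 0.13, adjusted p = 1.2e-07). Rgs17, which speeds the shut-off of G-protein signals, stood at 6.47, 6.79 and 7.30 in Q111 and at 8.48, 8.11 and 8.35 in Q7 (-1.46). The rule of choice puts Q111 below Q7 on every BeadChip for these 3 genes and for the others chosen as lower. En1, a homeobox gene of midbrain and limb patterning, stood at 7.45, 7.38 and 9.70 in Q111 and at 10.17, 10.02 and 10.23 in Q7 (-1.97, SE 0.43, adjusted p = 0.00792, other probe -0.72). Crabp1, a retinoic acid binding protein gene, stood at 7.45, 7.59 and 8.78 in Q111 and at 10.07, 10.16 and 9.14 in Q7 (-1.85, SE 0.42, adjusted p = 0.00968). For both, most of the gap lay on BeadChips 1 and 2, and the Q111 array of BeadChip 3 approached the Q7 level. Prl2c2, which encodes the secreted prolactin-family hormone proliferin, stood at 12.10, 11.86 and 12.75 in Q111 and at 13.58, 13.36 and 13.52 in Q7, a line difference of -1.25. In untreated cells it stood at 9.82, 9.53 and 9.26 in Q111 and at 11.38, 11.15 and 11.23 in Q7, a line difference of -1.72, so that it was higher under cystamine in both lines while Q111 stayed below Q7. Its difference of differences was 0.46, with an interval of -0.09 to 1.02. Erfe, Rgs16, Zfp521, Kcnab1, Vangl2 and Ptx3 made up the rest of the 12, between -1.33 and -1.05. All 12 were lower in untreated Q111 cells too, past the threshold, and their differences of differences lay between -0.22 and 0.46.

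Of these 24 genes, 11 of the 12 higher and 8 of the 12 lower in Q111 passed in every alternative fit. With the 6 cystamine arrays alone, Lox, En1, Crabp1, Rgs16 and Ptx3 did not pass. En1 and Crabp1 also missed the threshold without replicate 1 or replicate 2 of either line (highest adjusted p 0.0638 and 0.082), and Ptx3 missed it without replicate 1 of either line or Q7 replicate 2 (0.101). En1 missed it without the block as well (0.114).

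**Figure D2:**
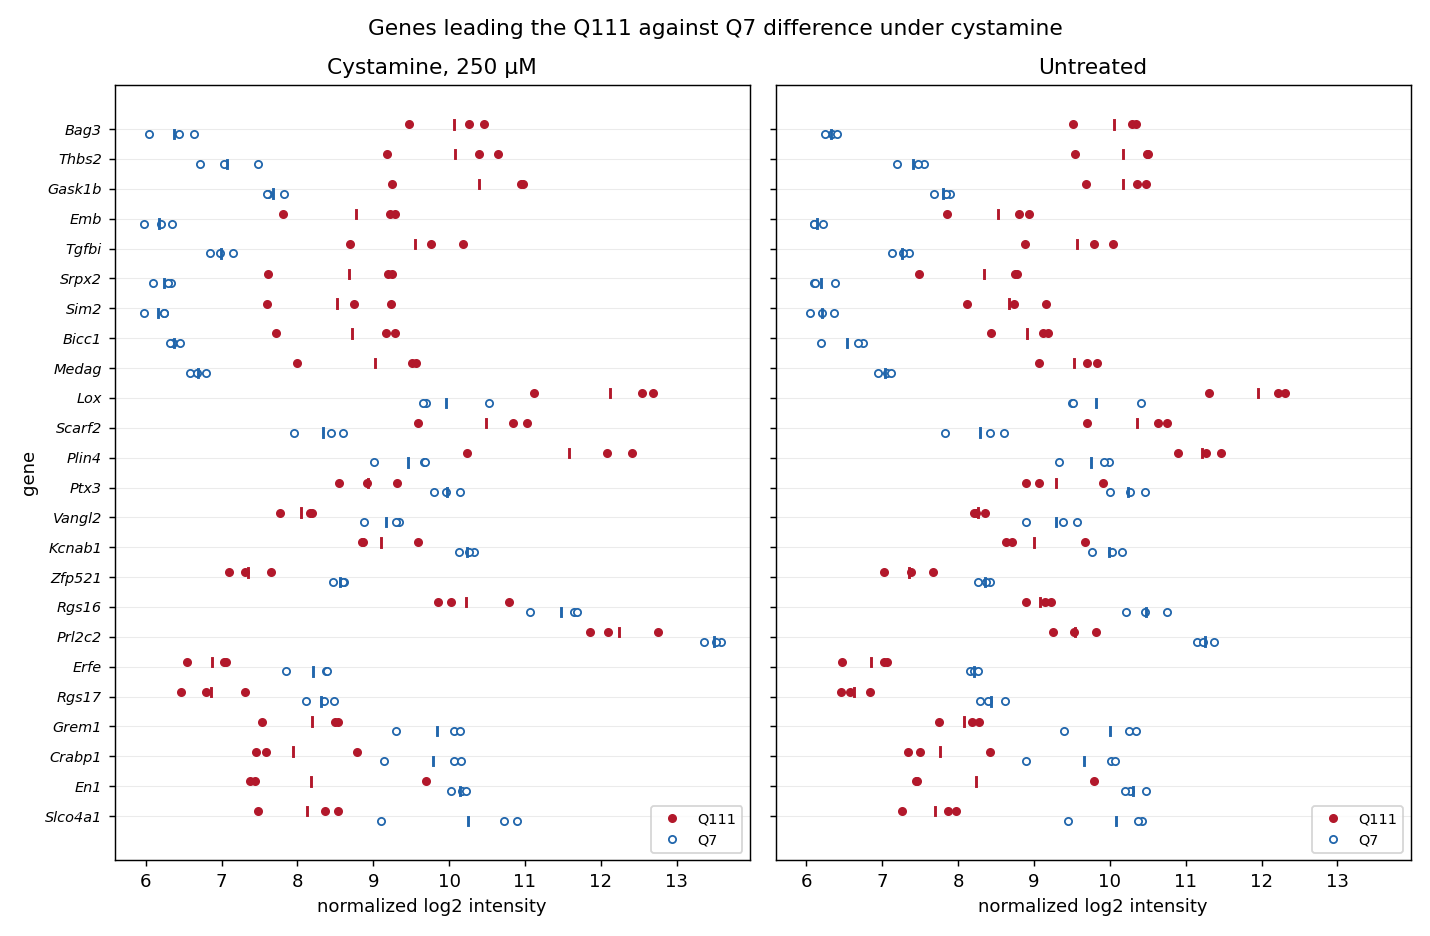
Normalized log2 intensity of the 12 genes with the largest positive and the 12 with the largest negative line difference under cystamine among called genes whose groups did not overlap, in cystamine-treated (left) and untreated cells (right), with 1 point per array, filled for Q111 and open for Q7, and a bar at each mean of 3. The order of the lines is the same in both panels for all 24 genes.

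The line difference under cystamine was not the same on the 3 BeadChips. Over all genes the difference on BeadChip 1 and that on BeadChip 2 had a Pearson r of 0.713, against 0.283 between BeadChips 1 and 3 and 0.192 between BeadChips 2 and 3. BeadChip 3 of the cystamine arm had an r of 0.403 with BeadChip 3 of the untreated arm. These are descriptions over genes. For 22 of the 24 leading genes (12 higher, 10 lower) the gap was smallest on BeadChip 3, the exceptions being Grem1 and Erfe. Of the 629 genes, 610 had the same sign on every BeadChip, against 38.8% of all genes. In 471 of the 629 the 3 Q111 and 3 Q7 arrays did not overlap, as in 1722 of all genes (17.5%). The 629 were called on these same arrays, which favours both traits, so these counts are a description. The model has a term for each BeadChip but none for a line difference that varies between them. With a BeadChip term for each line, an alternative added after seeing the data, the test of the difference again passed for 0 genes.

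**Figure D3:**
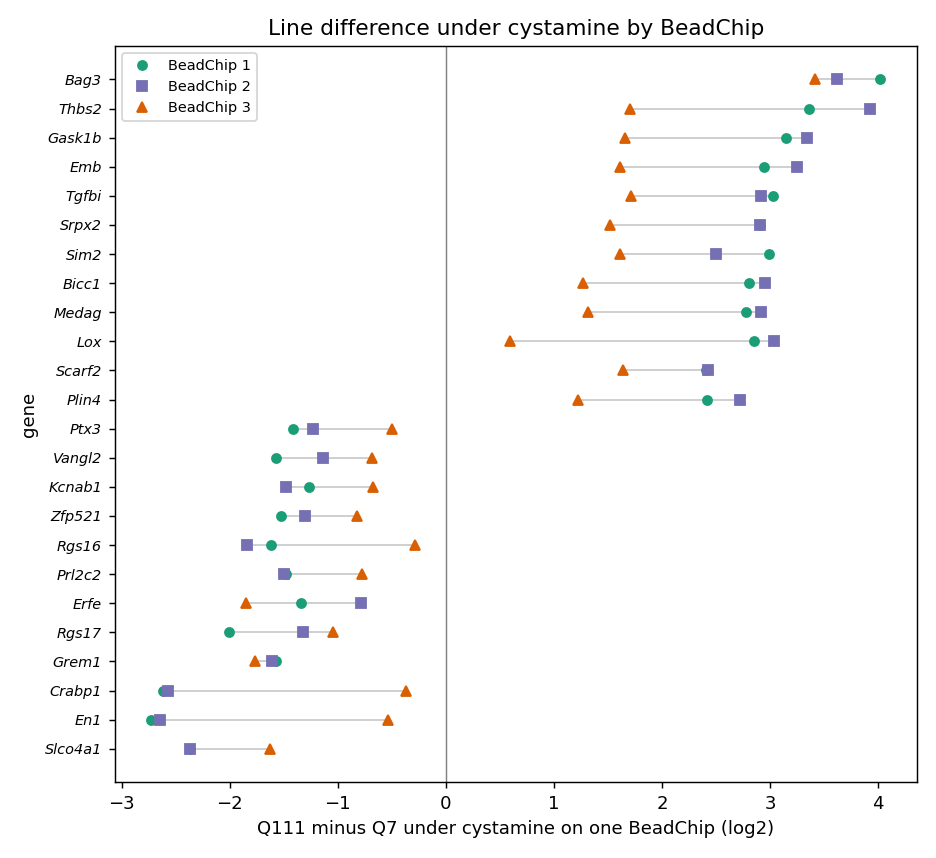
Q111 minus Q7 under cystamine (log2) on each BeadChip for the 24 genes, with a grey line spanning the 3 values. The triangles of BeadChip 3 lie closest to 0 for all genes but Grem1 and Erfe.

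Of 29 tested collagens and matrix glycoproteins, 10 were higher and 0 lower under cystamine and 8 higher untreated, with 7 called in both. Their median line difference was 0.48 under cystamine and 0.16 untreated, against a median of -0.01 over all genes in either condition. Bgn, the proteoglycan biglycan, stood at 10.72, 10.31 and 9.52 in Q111 and at 9.08, 8.89 and 8.46 in Q7 (line difference 1.37, SE 0.13, adjusted p = 1.61e-06). Col6a1 and Col6a2 encode chains of collagen VI, a microfibril of the pericellular matrix, and differed by 1.31 and 1.20 under cystamine, against 0.77 and 0.56 untreated, and the other probes of Col6a1 gave 0.43 and 1.19 under cystamine. For Col6a2, called under cystamine and not untreated (adjusted p = 0.125), the difference of differences was 0.63 with an unadjusted p of 0.0277. On BeadChips 1, 2 and 3 the median of the group was 0.52, 0.80 and -0.08, so BeadChip 3 did not show it. The count of 10 was 17 without BeadChip 3, and over fits that left out 1 cystamine array it ran between 7, without Q111 replicate 1 or 2, and 14, without Q111 replicate 3. Of 12 fibroblast markers 8 passed the filter on dim probes, and of these Pdgfra and Dcn lay below the array median on all 3 Q7 cystamine arrays. Of the markers that did not pass, Thy1 and Postn had lower mean percentiles in Q111 (23.9 and 30.9) than in Q7 (36.6 and 36.5). As a description of the 8 that passed, 5 were higher in Q111 under cystamine (3 without Q111 replicate 1, Q111 replicate 2 or Q7 replicate 2), 4 untreated, with medians of 1.49, 1.49 and 0.27 on BeadChips 1, 2 and 3. Among them Pdgfra, a receptor for platelet-derived growth factor on mesenchymal cells, stood at 8.32, 8.10 and 7.02 in Q111 and at 6.37, 6.65 and 6.58 in Q7 (1.28). The summed log2 level of the 8 ran between 74.2 and 83.6 on the Q111 arrays and between 71.0 and 72.6 on the Q7 arrays, and Lum, Fbln1 and Postn lay below the array median on all 6. Several matrix genes are on both lists, and whether cells of another kind had a part in the difference was not tested. In these bulk samples, fewer cells of a type and less RNA per cell cannot be told apart.

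TGF-beta and BMP ligands bind paired receptor kinases that activate SMAD proteins, and Grem1 and SMAD6 restrain the BMP branch. Of 21 tested genes of these pathways, 7 were higher in Q111 under cystamine and 1, Grem1, was lower, against 3 higher and 1 lower untreated. The ligand gene Tgfb3 stood at 8.38, 8.54 and 7.97 in Q111 and at 7.42, 7.73 and 7.56 in Q7, a line difference of 0.73 that was 0.72 untreated. Smad6 differed by 0.55 under cystamine and by 0.24 untreated (adjusted p = 0.00191 and 0.276), with a difference of differences of 0.31 (interval 0.01 to 0.62). The 7 became 4 without the block and without Q111 replicate 1 or 2, and 10 without BeadChip 3. Of 14 tested Wnt genes, 3 were higher in Q111, led by the ligand gene Wnt4 (0.91, SE 0.16), and 0 lower. The 3 became 1 without the block and without Q111 replicate 1, Q111 replicate 2 or Q7 replicate 2, 5 without Q111 replicate 3, and 6 (with 2 lower) without BeadChip 3. Of 30 growth factors and receptors, 5 were higher and 3 lower, but 2 and 2 without the block, 3 and 3 without Q111 replicate 1, and 10 and 4 without BeadChip 3. Igfbp2, which binds insulin-like growth factors, was lower by 0.98 on the log2 scale in Q111 under cystamine and by 1.02 untreated.

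Homeobox and related transcription factors set regional identity in the embryo, and DLX1 and DLX2 specify striatal neurons. Of 30 tested, 7 were higher and 3 lower in Q111 under cystamine, against 5 and 2 untreated, with 7 called in both. Dlx2 stood at 7.86, 8.34 and 7.18 in Q111 and at 6.28, 6.01 and 6.17 in Q7 (line difference 1.64, 1.55 untreated), although a second probe gave 0.06 and the probe used lay below the array median on all 3 Q7 arrays, where no call of presence was used. Zic1, a zinc finger gene of the neural plate, stood at 8.22, 8.47 and 7.04 in Q111 and at 6.27, 6.29 and 6.41 in Q7 (1.58, against 1.30 untreated). Dlx1 differed by 0.81, and by 0.45 untreated, where it did not pass (adjusted p = 0.0922). The Q111 and Q7 arrays of these 3 genes did not overlap. The 3 lower calls were 0 without the block and without replicate 2 of either line, and 1 without replicate 1 of either line.

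Of 17 tested genes of G-protein signalling, 4 were lower and 1 higher in Q111 in both conditions, and the same 5 genes were called, while the median of the list was -0.09 under cystamine and 0.04 untreated. The higher calls were 2 with median scaling and without BeadChip 3, Q111 replicate 3 or untreated Q111 replicate 3. The 4 lower calls under cystamine became 3 with median scaling or without Q111 replicate 1, and 5 without Q111 replicate 3. Rgs4, an inhibitor of Gq and Gi signalling, was the gene that was higher. It stood at 8.12, 8.07 and 7.22 in Q111 and at 6.64, 6.61 and 6.81 in Q7 under cystamine, against 8.42, 8.36 and 8.39 in Q111 and 6.80, 6.90 and 6.71 in Q7 untreated. Its line difference was 1.11 under cystamine and 1.58 untreated, with a difference of differences of -0.47 (interval -1.01 to 0.07). Pde10a, the cyclic nucleotide phosphodiesterase enriched in striatal neurons, was lower in Q111, with line differences of -0.96 under cystamine and -0.82 untreated. Of 17 tested chemokine and NF-kappaB genes, 1 was higher and 3 lower under cystamine, against 1 and 4 untreated. The chemokine gene Ccl5 stood at 8.30, 8.02 and 7.01 in Q111 and at 6.59, 6.53 and 6.38 in Q7 (1.27, against 0.84 untreated). Vcam1, an adhesion receptor for leukocytes, was lower by 0.61, and Ccl2 and Cxcl1 were lower by 0.67 and 0.45. The 3 lower calls were 1 without the block, with median scaling, and without Q111 replicate 1, Q7 replicate 1 or Q7 replicate 2.

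NRF2 drives glutathione enzymes and other genes against oxidants, and of 35 tested NRF2 targets and glutathione enzymes 19 were higher under cystamine than untreated in Q111, where 1.73% of all genes changed, and 16 in Q7, where 0.924% did. The line difference under cystamine was positive for 5 of the 35 past the threshold and negative for 0, with a median of 0.13 (0.03 untreated). Mgst2, a membrane-bound glutathione transferase, stood at 9.81, 9.98 and 9.73 in Q111 and at 8.97, 8.90 and 9.01 in Q7 under cystamine, against 9.17, 9.16 and 8.68 in Q111 and 8.47, 8.78 and 8.43 in Q7 untreated. Its line difference was 0.88 (SE 0.13, adjusted p = 0.000258) and 0.44 untreated, and the difference of differences was 0.44 with an interval of 0.05 to 0.83 (unadjusted p = 0.0292). The 5 calls became 1 without the block, 2 without Q7 replicate 1, 3 without Q111 replicate 1, Q111 replicate 2 or Q7 replicate 2, and 8 without BeadChip 3. ATF4 is the transcription factor of the integrated stress response, which answers amino acid shortage and misfolded protein. Of its 27 tested targets, 8 were higher and 0 lower in Q111 under cystamine, and 5 higher and 1 lower untreated. Of the 27, 7 were higher under cystamine than untreated in Q111 and 3 in Q7. Chac1, which degrades glutathione, stood at 13.08, 13.09 and 12.74 in Q111 and at 12.25, 12.24 and 12.21 in Q7 (0.73, against 0.60 untreated). Vldlr, a lipoprotein receptor, differed by 0.95 (0.22 and 0.36 on its other probes), Trib3, a pseudokinase, by 0.72, and Ddit3, the stress factor CHOP, by 0.54. The 8 became 2 without the block, 4 without Q111 replicate 1, Q111 replicate 2 or Q7 replicate 2, and 5 without Q7 replicate 1.

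**Figure D4:**
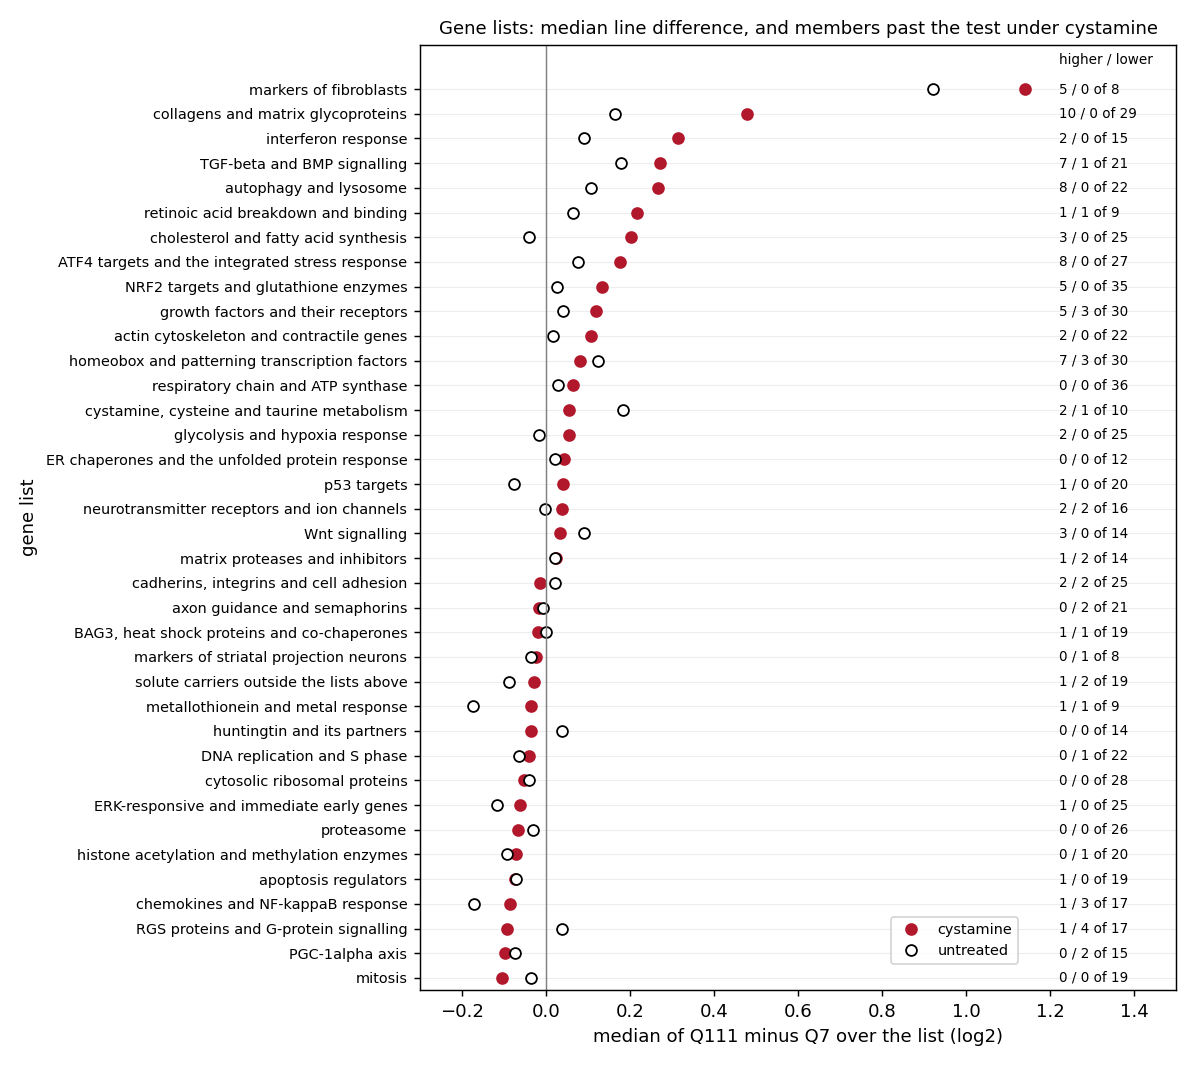
Median line difference (Q111 minus Q7, log2) over each gene list with at least 8 tested members, under cystamine (filled) and untreated (open), with the numbers of members higher and lower in Q111 past the threshold under cystamine at the right. Fibroblast markers (1.14) and collagens (0.48) have the highest medians under cystamine, against 0.92 and 0.16 untreated.

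The 236 shared genes had a median size of 0.78 under cystamine and 0.72 untreated, and 139 of them were larger under cystamine. The 95% interval of the difference of differences lay within 1 log2 unit of 0 for 218 of the 236, and 6 had an unadjusted p under 0.05. The lines differed in 2.37% of genes under ZDON and in 1.85% under Boc-DON, and 110 of the 236 were called in the same direction under each of them, 81 higher and 29 lower in Q111. The median SE of the difference of differences was 0.18 over all genes, larger than the 0.13 of a line difference under cystamine.

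The 393 genes called under cystamine and not untreated were mostly smaller differences that ran the same way in both conditions. In untreated cells 361 had the same sign and 194 of these an unadjusted p under 0.05, and in the mean of the ZDON and Boc-DON arms 123 were called in the same direction and 1 in the other. Their median size was 0.49 under cystamine and, in the same direction, 0.24 untreated. Since they were chosen by a high value under cystamine and a low one untreated, that gap is a description. The test of the difference passed for 0 of the 393, and 118 had an unadjusted p under 0.05. Likewise, of the 82 genes called untreated alone 73 had the same sign under cystamine, 34 of them with an unadjusted p under 0.05, and their medians were 0.23 under cystamine and 0.51 untreated. The test of the difference passed for 0 of the 82, and 24 had an unadjusted p under 0.05.

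The genes with the smallest p in that test are given as values. Pex5l, a relative of the peroxisome import receptor PEX5 that binds HCN channels, stood at 7.03, 6.95 and 6.63 in Q111 and at 6.14, 6.33 and 5.87 in Q7 under cystamine, against 6.69, 6.61 and 6.51 in Q111 and 6.47, 6.87 and 6.47 in Q7 untreated. The lines did not overlap under cystamine and did untreated, with a difference of differences of 0.76 (interval 0.41 to 1.11, adjusted p = 0.777). Yet in the mean of the ZDON and Boc-DON arms Pex5l also differed, by 0.66 (adjusted p = 6.3e-05). Rnmt, the methyltransferase of the mRNA cap, stood at 7.65, 7.58 and 7.80 in Q111 and at 8.13, 8.07 and 8.23 in Q7 under cystamine, a line difference of -0.46, against 0.08 untreated. B3galt6, which builds the linker of glycosaminoglycan chains, differed by 0.43 under cystamine and by -0.21 untreated, and Sec14l1, of the Sec14 lipid-binding family, by 0.22 and -0.32. Tmem45a, a transmembrane protein gene, differed by 0.91 and by 0.29 untreated (0.33 and 0.15 on its other probe), and by 0.61 in the mean of the ZDON and Boc-DON arms. None of these passed the test of the difference after adjustment. Fam180a, named after its values were seen, had the largest such difference among the genes called under cystamine (interval 0.46 to 2.54, unadjusted p = 0.00698). It stood at 10.81, 10.77 and 7.51 in Q111 and at 8.76, 8.53 and 7.38 in Q7 under cystamine, against 8.77, 8.66 and 7.65 in Q111 and 8.66, 8.77 and 7.74 in Q7 untreated, so that the gap lay on BeadChips 1 and 2. Without BeadChip 3 its difference of differences was 2.14 and passed (adjusted p = 0.000404).

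Among genes called in untreated cells alone, the values of Ddit4, a stress-induced inhibitor of mTORC1, came together under cystamine. Under cystamine Ddit4 stood at 9.57, 9.65 and 9.78 in Q111, against 9.71, 9.71 and 9.47 in Q7. Untreated it stood at 9.12, 8.99 and 8.85 in Q111, against 9.48, 9.61 and 9.73 in Q7. The line difference was 0.03 under cystamine and -0.62 untreated, with a difference of differences of 0.65 (interval 0.31 to 1.00, unadjusted p = 0.000872, adjusted p = 0.777). In Q111 alone Ddit4 was higher under cystamine than untreated by 0.68 (adjusted p = 0.00287), and in Q7 the change was 0.03. Nfkbia, the inhibitor of NF-kappaB, stood at 8.02, 7.78 and 7.96 in Q111 and at 8.04, 7.84 and 7.99 in Q7 under cystamine, against 7.75, 7.46 and 7.36 in Q111 and 8.27, 8.09 and 8.04 in Q7 untreated. Its line difference was -0.04 under cystamine and -0.61 untreated. The lines overlapped under cystamine and not untreated for both genes. Mafk, a small MAF partner of NRF2, had line differences of 0.30 under cystamine and -0.60 untreated, and Hspa4l, a chaperone of the Hsp110 family, 0.12 and -0.69. Cirbp, a cold-inducible RNA-binding protein gene, had -0.15 and 0.54, and Usp47, a deubiquitinase gene, -0.16 and 0.50.

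**Figure D5:**
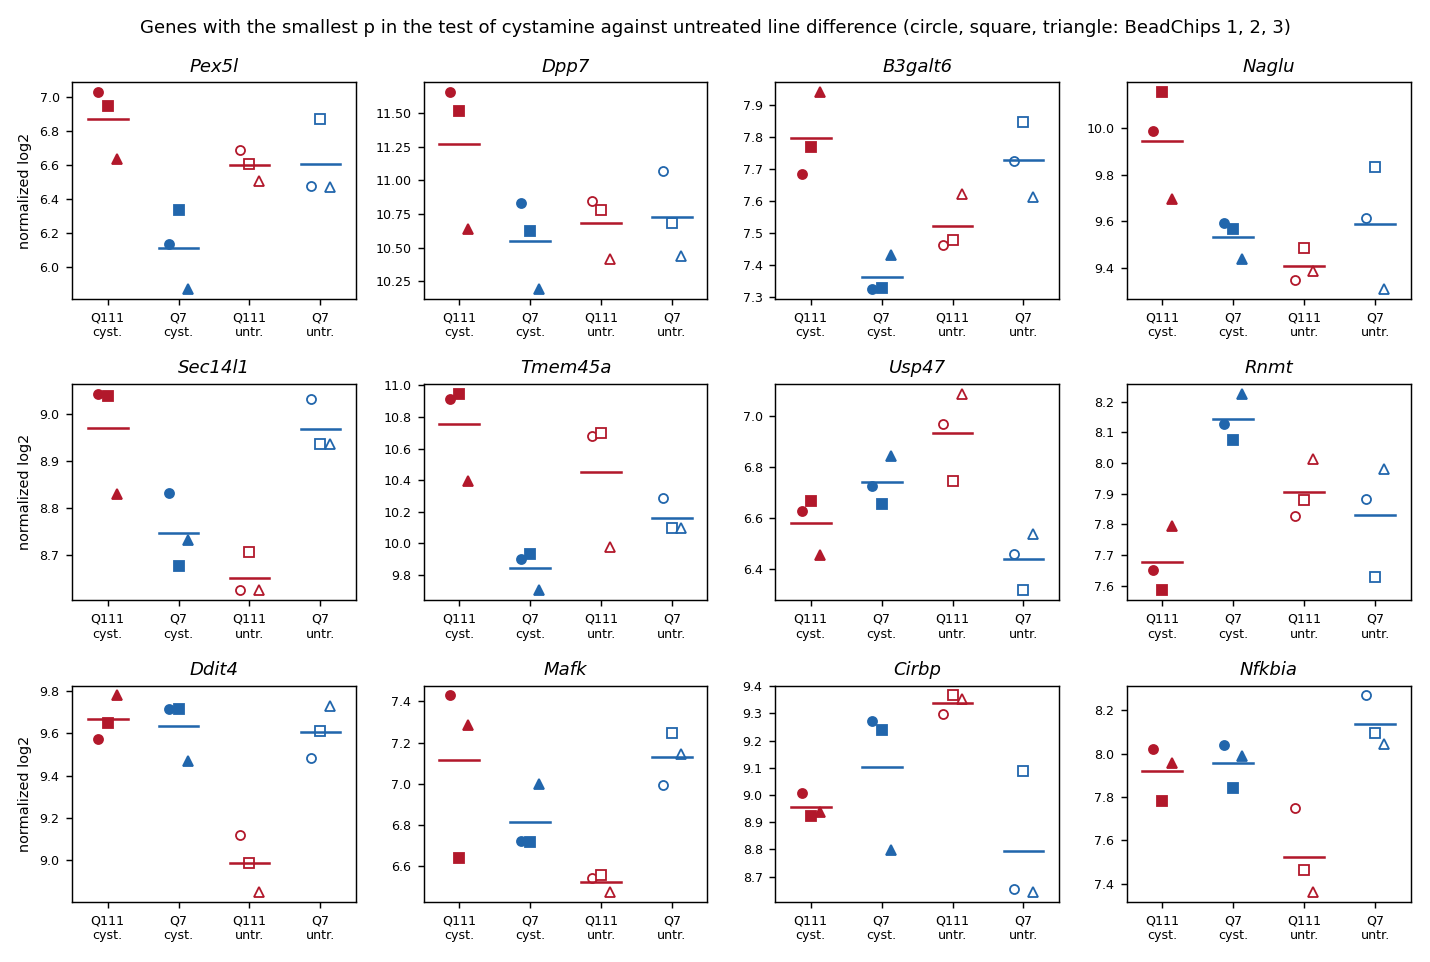
Normalized log2 intensity of 12 of the genes with the smallest p in the test of the line difference under cystamine minus that in untreated cells, in Q111 and Q7 under cystamine (filled) and untreated (open), with 1 symbol per array by BeadChip and a bar at each mean of 3. The lines are apart under cystamine for Pex5l, Rnmt and B3galt6 and come together for Ddit4 and Nfkbia, though no gene passed the test after adjustment.

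Lysosomes break down protein, glycans and lipids delivered by endocytosis and autophagy, and many of their genes carry the E-box TCACGTGA, bound by the transcription factor TFEB and its relatives. A pair of lysosomal hydrolase genes was among those called under cystamine with the smallest p for the difference, Dpp7 and Naglu, and Ctsd, the protease cathepsin D, was called as well. The RefSeq sequence of the 250 bases before the start of each (GRCm38.p6) is shown with TCACGTGA in capitals for Dpp7 and Ctsd and its core CACGTG in capitals for Naglu, both of which read the same on either strand. A further CACGTG close to the 5′ end of the Ctsd stretch is left in lower case. Dpp7 is given from chr2:25356333-25356582 on the minus strand, Ctsd from chr7:142387828-142388077 on the minus strand and Naglu from chr11:101069844-101070093 on the plus strand.
Dpp7: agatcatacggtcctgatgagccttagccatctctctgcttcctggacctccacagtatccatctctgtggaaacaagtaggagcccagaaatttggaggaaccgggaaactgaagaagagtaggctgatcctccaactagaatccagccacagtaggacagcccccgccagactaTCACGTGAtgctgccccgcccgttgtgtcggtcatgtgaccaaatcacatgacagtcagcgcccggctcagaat
Ctsd: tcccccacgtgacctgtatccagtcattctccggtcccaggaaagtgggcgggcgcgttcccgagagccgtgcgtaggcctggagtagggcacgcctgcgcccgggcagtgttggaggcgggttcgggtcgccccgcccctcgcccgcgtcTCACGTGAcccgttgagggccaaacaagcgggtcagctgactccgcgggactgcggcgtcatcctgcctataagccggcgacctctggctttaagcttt
Naglu: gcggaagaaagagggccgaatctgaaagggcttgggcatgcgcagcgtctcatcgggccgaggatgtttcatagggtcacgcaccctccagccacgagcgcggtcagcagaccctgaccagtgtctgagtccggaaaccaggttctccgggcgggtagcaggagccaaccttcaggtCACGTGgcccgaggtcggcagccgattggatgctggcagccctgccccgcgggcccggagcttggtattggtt

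The motif TCACGTGA begins 74 bases before the start of Dpp7 and 99 bases before that of Ctsd, and CACGTG begins 73 bases before the start of Naglu. In windows of 300 bases around the start, TCACGTGA was found in 4 of 18 autophagy and lysosome genes with a sequence (22.2%), namely Atp6v0d1, Ctsa, Ctsd and Mcoln1, and in 1.96% of the 7995 tested genes with a sequence. CACGTG, which also counts every TCACGTGA, was found in 6 of the 18 (33.3%) and in 11.2% of the tested genes. Of the list's genes with TCACGTGA, Ctsd and Atp6v0d1 were called under cystamine, and Ctsa and Mcoln1 were not. Ctsb, Hexa, Map1lc3a, Map1lc3b, Npc2 and Neu1 were called and are not among the matches to either motif. Of the 22 tested genes of the list 18 had a sequence, and a gene without one cannot match. Dpp7 and Naglu are not on this list. A match is a description of the letters and says nothing of binding.

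Dpp7, a dipeptidyl peptidase, stood at 11.65, 11.51 and 10.64 in Q111 and at 10.83, 10.63 and 10.20 in Q7 under cystamine, against 10.85, 10.78 and 10.42 in Q111 and 11.07, 10.68 and 10.44 in Q7 untreated. The line difference was 0.72 under cystamine (SE 0.13, adjusted p = 0.00132) and -0.05 untreated, and the difference of differences 0.77 (interval 0.39 to 1.15, adjusted p = 0.777). Without BeadChip 3 that difference of differences was 0.92 and passed (adjusted p = 0.0454). Naglu, which trims heparan sulfate, stood at 9.99, 10.15 and 9.69 in Q111 and at 9.59, 9.57 and 9.44 in Q7 under cystamine, against 9.35, 9.48 and 9.38 in Q111 and 9.61, 9.83 and 9.31 in Q7 untreated. Its line difference was 0.42 under cystamine and -0.18 untreated, and the difference of differences 0.60 (interval 0.28 to 0.91, adjusted p = 0.777). For both genes every Q111 array lay above the Q7 array of its BeadChip under cystamine, and on 2 of the 3 BeadChips below it untreated.

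Of 22 tested genes of autophagy and the lysosome, 8 were higher and 0 lower in Q111 under cystamine, and 0 passed untreated or in the ZDON or Boc-DON arm, where 2, 2 and 6 had an unadjusted p under 0.05. In the mean of the ZDON and Boc-DON arms, 1 was higher in Q111 past the threshold. The median of the list was 0.27 under cystamine and 0.11 untreated, and by BeadChip it was 0.43, 0.32 and 0.16 under cystamine. Ctsb, the protease cathepsin B, stood at 12.53, 12.61 and 12.17 in Q111 and at 11.78, 11.87 and 11.80 in Q7 (line difference 0.62, SE 0.11, adjusted p = 0.00168, other probe 0.37). Ctsd stood at 12.72, 12.49 and 12.18 in Q111 and at 11.96, 12.14 and 11.80 in Q7 (0.49, SE 0.11). Hexa, a subunit of the ganglioside-degrading hexosaminidase, differed by 0.57, and Atp6v0d1, a subunit of the proton pump that acidifies the lysosome, by 0.53. Q111 and Q7 did not overlap under cystamine for Ctsb and Ctsd. The other calls, named after their values were seen, were Map1lc3b and Map1lc3a of the autophagosome coat, the sterol carrier gene Npc2 and the sialidase gene Neu1, between 0.40 and 0.61. The difference of differences was 0.41 for Ctsb, 0.46 for Hexa and 0.35 for Ctsd, with unadjusted p of 0.0199, 0.0117 and 0.0291, and the test passed for 0 of the 22, with 6 at an unadjusted p under 0.05. The count of 8 was 2 without the block and 10 without BeadChip 3, and without single arrays it was 1 (Q111 replicate 1), 5 (Q111 replicate 2 or Q7 replicate 1) and 4 (Q7 replicate 2).

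Genes of cholesterol and fatty acid synthesis had 3 of 25 tested members higher and 0 lower in Q111 under cystamine, and 0 higher and 1 lower untreated. These enzymes are driven by SREBP transcription factors when sterols are low. Acss2, which makes acetyl-CoA from acetate, stood at 10.78, 10.76 and 9.54 in Q111 and at 9.78, 9.65 and 9.07 in Q7 under cystamine, against 10.13, 10.08 and 9.90 in Q111 and 10.13, 10.28 and 9.30 in Q7 untreated (line difference 0.86 under cystamine, adjusted p = 0.0102, and 0.14 untreated). Its difference of differences was 0.72 (adjusted p = 0.794), and 1.15 without BeadChip 3, where it passed (adjusted p = 0.01). Ebp, a sterol isomerase, differed by 0.48 and Scd1, a fatty acid desaturase, by 0.52. The difference of differences was positive in 25 of 25 members, as in 4996 of all 9849 genes, with a median of 0.24, and the test passed in 0, with 6 at an unadjusted p under 0.05. On BeadChips 1, 2 and 3 it was positive in 22, 23 and 13 of the 25, with medians of 0.34, 0.32 and 0.07. The 3 calls were 0 without Q111 replicate 1, 1 without Q111 replicate 2 or without the block, 2 without any 1 Q7 array (with 1 lower call without Q7 replicate 2), and 5 without untreated Q7 replicate 2 or BeadChip 3.

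Interferon-induced genes, which answer viral nucleic acids, had 2 of 15 tested members higher in Q111 under cystamine and 0 untreated (2 at an unadjusted p under 0.05), with medians of 0.31 and 0.09. Irf9, a subunit of the interferon-activated factor ISGF3, averaged 9.59 ± 0.45 in Q111 and 8.80 ± 0.25 in Q7 under cystamine (SD, n = 3 each), with no overlap between the lines (line difference 0.79, SE 0.13, adjusted p = 0.000513). Its other probe gave 0.17 under cystamine and 0.29 untreated. Bst2, which tethers budding virus, stood at 10.97, 11.17 and 9.33 in Q111 and at 9.97, 10.04 and 9.19 in Q7 (0.76, SE 0.16, adjusted p = 0.00614). Untreated they differed by 0.30 and 0.22. The count was 0 without the block, 1 without Q111 replicate 1 or 2, 7 without Q111 replicate 3 and 6 without BeadChip 3, on which the median difference of differences was -0.04.

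Genes that distinguish the lines were also taken from arrays that neither condition uses. Their calls used the residual spread of that same fit to all arrays, so they are not independent of the calls in either condition. The mean line difference of the ZDON and Boc-DON arms passed for 618 genes (6.27%), of which 378 were higher in Q111. Under cystamine 596 of the 618 had the same sign and 334 (54.0%) were called in the same direction, and untreated 600 had the same sign and 243 (39.3%) were called. Their median line difference in that direction was 0.43 under cystamine and 0.38 untreated, and by BeadChip it was 0.50, 0.50 and 0.32 under cystamine and 0.44, 0.42 and 0.29 untreated. The called share under cystamine was 34.9% without Q111 cystamine replicate 1. The number of genes chosen was 565 without Q7 cystamine replicate 1 and 688 without untreated Q7 replicate 3. It was 438 without Q111 Boc-DON replicate 1, an array of the arms that define the set.

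Tgm2, Htt, Bdnf, Ppargc1a and Cycs, genes tied to the study's question, did not pass the test between the lines under cystamine. Tgm2, which encodes transglutaminase 2, stood at 7.67, 7.71 and 8.62 in Q111 and at 8.15, 7.97 and 8.06 in Q7, with overlapping groups (line difference -0.06, SE 0.26, adjusted p = 0.924). Htt, huntingtin, stood at 8.64, 8.89 and 8.65 in Q111 and at 8.86, 9.02 and 8.79 in Q7 (-0.16, SE 0.08, adjusted p = 0.259), and its probe does not measure the repeat. Bdnf, a survival factor of striatal neurons, had a line difference of 0.05 at levels of 6.51 to 6.62. Ppargc1a, the PGC-1alpha coactivator of mitochondrial genes, stood at 8.47, 8.48 and 8.41 in Q111 and at 8.34, 8.13 and 7.71 in Q7 under cystamine, against 8.62, 8.49 and 8.58 in Q111 and 8.93, 8.59 and 8.79 in Q7 untreated. Its line difference was 0.39 under cystamine (adjusted p = 0.11) and -0.21 untreated, and the difference of differences 0.60 (interval 0.18 to 1.03, adjusted p = 0.794). Cycs, cytochrome c, had a line difference of -0.23 (adjusted p = 0.145). Of 15 tested genes of the PGC-1alpha axis, 2 were lower in Q111, Gabpa (-0.39, but 0.01 and -0.15 on its other probes) and Esrrb (-0.71), and 0 higher, but 0 passed without Q111 replicate 1 or Q7 replicate 2 and 1 without the block, with median scaling, or without Q111 replicate 2, Q7 replicate 1 or Q7 replicate 3. Calls under cystamine were 0 among 26 proteasome genes, 12 genes of ER chaperones and the unfolded protein response, 14 of huntingtin and its partners, 3 transglutaminases, 36 respiratory chain and ATP synthase genes, 19 of mitosis and 28 cytosolic ribosomal proteins, by limma with the block, and their medians lay between -0.10 and 0.06. At an unadjusted p under 0.05, in that order, 2, 1, 2, 0, 1, 2 and 1 passed. For a line difference, the share of all genes at that unadjusted level is not given, here or for the lists above. Past the adjusted threshold 6.39% of all genes were called under cystamine, so 0 calls in lists this short do not show that they were spared. Without BeadChip 3 the lower calls were 3 for mitosis, 2 for ribosomal proteins, 2 for huntingtin and its partners, 1 for transglutaminases and 1 for the proteasome, with 1 higher call for the respiratory chain. Without Q111 cystamine replicate 3, 1 ribosomal protein gene was lower, and without untreated Q7 replicate 3, 1 ER chaperone gene was higher.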

How the data were processed

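Per the labels, Illumina mouse bead arrays measured RNA of both lines. The main input was the deposited table of intensity per probe, for which the submitters' processing notes name BeadStudio. Whether background was subtracted in it is not stated in the sources. The deposited log2 values, normalized by the authors, were used as an alternative. A column with no sample (1) was left out.

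In limma 3.58.1 (R 4.3.3), normexp background correction with an offset of 50 preceded quantile normalization and the log2 step. Of 24611 probes, 15049 lay above their array's median on at least 2 arrays, and 12504 of these had a symbol. The probe with the highest mean stood for each of 9849 genes (2055 had several probes). A probe of 18S rRNA annotated with a gene's symbol was left out. All 23 arrays entered a model with 8 group means and the replicate number, which marks the BeadChip, as a block (13 residual degrees of freedom). P-values were adjusted by Benjamini-Hochberg over all genes, at 0.05. For arrays, their number limits the precision. After group means were removed, same-numbered arrays had a median correlation over genes of 0.208 (72 of 77 pairs above 0), against -0.111 for other pairs. The test was checked on simulated data with independent noise and no line difference that varied between BeadChips. That check does not cover such variation.

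Named genes were the 12 largest differences each way under cystamine whose groups did not overlap, the 6 smallest p in the test of the difference, overall and among genes called in 1 condition alone, up to 4 members of each list described, and Bag3, Tgm2, Htt, Bdnf, Ppargc1a and Cycs. The members, the 44 gene lists and the tests were chosen with earlier results of these data known. Alternatives were no block, other filters, backgrounds and scaling, array weights, the deposited values, the compared arrays alone, and arrays or BeadChips left out.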

Additional observations from a re-analysis of the deposited data

How the results depend on the processing

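Under the alternatives no named gene that passed in the main or the alternative fit turned its direction. Turns of genes past the threshold in neither fit were not counted. The median of the 3 transglutaminases, none of which passed, went from -0.05 to 0.06 without Q111 cystamine replicate 1. The test of the line difference under cystamine minus that in untreated cells passed for 0 genes except as given here. Without the replicate block, 281 genes passed under cystamine (629 with it) and 153 untreated (318), and the test of the difference stayed at 0. With the compared arrays alone the counts were 104 and 152, and with array weights 1768 and 528. Without BeadChip 3, 1400 genes passed under cystamine. Leaving out BeadChip 1 or 2, chosen after seeing the data, gave 66 and 105 genes under cystamine and 52 and 83 untreated. Leaving out BeadChip 3 gave 12 genes in the test of the difference, all positive, namely Fam180a, Slc2a6, Olfm1, Ranbp3l, Plin4, Acss2, Xdh, Mgp, Ifi27, Dpp7, Enpp5 and Slc40a1, for which the cause was not tested. Without 1 array of the same condition, 293 to 1018 genes passed under cystamine and 161 to 267 untreated. Without 1 array of the other condition, 600 to 708 passed under cystamine and 292 to 381 untreated. The test of the difference passed for 0 to 4 genes without 1 of these arrays (1 without Q111 cystamine replicate 2 and 4 without Q111 cystamine replicate 3). For the genes of the ZDON and Boc-DON arms, the share called under cystamine ran between 34.9% and 75.3%. No filter, a stricter filter, no background correction, median scaling and the deposited log2 values kept the counts within 1.5 times (487 to 723 under cystamine, 256 to 351 untreated). Signal over background limits the dimmest genes: detection p-values were not used, so levels near background carry no call of presence.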

Other observations

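Fbxw5, singled out after its values were seen, had the largest line difference under cystamine minus that in untreated cells of any tested gene (3.16, interval -1.23 to 7.55), with arrays at either of 2 levels. It stood at 11.72, 12.04 and 6.80 in Q111 and at 6.98, 7.06 and 6.75 in Q7 under cystamine, against 7.17, 6.77 and 11.90 in Q111 and 12.06, 6.87 and 6.62 in Q7 untreated. It passed in neither condition (adjusted p = 0.216 under cystamine by limma).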
